A study of Mus musculus with 9 samples.

Results

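G2/M and mitosis genes, which are switched on as a cell prepares to divide and divides, were followed in hematopoietic stem and progenitor cells on 9 mouse arrays. The list holds 41 gene symbols, taken by name. Each gene was represented by its brightest probe set, the one with the highest mean over the 9 arrays among the probe sets named for 1 gene. Such a probe set was found for 40 of the 41 genes, out of 18193 genes in all. Ccnb1, cyclin B1, had none in the annotation used and was not analysed here. All 40 passed the filter on low values, a mean log2 level above 4.03, and were tested among 12400 genes.

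The cells were Lin-Sca1+cKit+ (LSK) cells, the marrow fraction with stem cells and multipotent progenitors, sorted 8 weeks after transplantation into C57Bl/6 mice. The control group was LSK cells of mice transplanted with wild type LSK cells. The other groups came from mice transplanted with cells carrying the retroviral transgene dnMPL, split by the vector's GFP into GFP-negative LSK cells and GFP-positive LSK cells. An irradiation of 10 Gy is recorded for every sample, controls included. Recipients of transduced cells are described as lethally irradiated C57Bl/6 mice. Their lineage-negative donor cells had been cultured with cytokines and transduced on successive days. There were 3 arrays a group, and the marrow of 2 to 5 mice was pooled for each of them. Neither the age of the mice, the promoter in the vector nor a vector in the control cells is given in the sources used here. Culture, transduction and the kind of cells transplanted therefore cannot be told apart from dnMPL. The labels list the arrays of a group as separate samples without saying that the pools were of different mice, so every SD and p-value measures only the spread between these arrays.

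Entry into mitosis is driven by CDK1 bound to cyclins A and B, which CDC25 phosphatases switch on and the transcription factor FOXM1 helps to supply. Polo and Aurora kinases then build the spindle, the checkpoint kinases hold anaphase until every kinetochore is attached, and CDC20 with the anaphase-promoting complex ends mitosis by destroying cyclin B and freeing separase. Transcripts of these genes build up in G2 and mitosis and are low in resting cells, so in bulk RNA their level depends on how many cells are dividing. Most long-term stem cells in the LSK gate rest, while multipotent progenitors in the same gate divide often. In RNA of a whole sample, fewer dividing cells and less of a transcript per dividing cell cannot be told apart.

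All levels are log2 RMA values, so a difference of 1 is a 2-fold change. Array medians ranged from 4.52 to 4.64. In limma's array weights, which are low for an array that departs from its group, control 3 had 0.364 and GFP-positive 2 had 0.369, and the remaining arrays had 0.809 to 2.38. For Gapdh the log2 level of the 3′ control probe set minus that of the 5′ set, a sign of shortened RNA when wide, was 3.87 on control 3 and 3.22 on GFP-positive 2, against 2.47 to 2.89 on the other arrays. Of the markers of LSK cells, Kit lay at 6.38 to 8.73, Cd34 at 9.31 to 10.5, Flt3 at 8.67 to 9.28 and Ptprc at 9.88 to 10.6, while Ly6a had no probe set named for 1 gene. The 3 markers of T and NK cells measured were below the filter.

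The median level of the 40 mitosis genes separated 1 array from the other 8. It was 7.66, 7.73 and 6.82 on controls 1, 2 and 3, 7.82, 7.70 and 7.71 on the GFP-negative arrays, and 7.74, 7.45 and 7.97 on the GFP-positive arrays. Control 3 was the low array, while controls 1 and 2 lay within the range of the dnMPL arrays. The means of these medians were 7.40 ± 0.51 in control, 7.74 ± 0.066 in GFP-negative and 7.72 ± 0.26 in GFP-positive cells (SD, n = 3 each). The control SD therefore exceeded the distance between the groups.

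On control 3, 30 of the 40 genes (75.0%) were below both other controls, against 40.3% of all genes tested. The median gene of the list was 0.96 lower there than the mean of controls 1 and 2, and the median over all genes tested was 0.040 lower. The median level over all genes tested was 6.11 on control 3, against 6.33 and 6.41 on controls 1 and 2. The 40 genes were also brighter, with a median mean level of 7.60 against 6.26 over all genes tested. Of the 40 genes, 18 were more than 1 lower, which held for 17.3% of all genes, and 7 were higher on control 3. For 28 genes (70.0%) control 3 was the lowest of the 9 arrays, as it was for 18.9% of all genes. GFP-positive 2, the other array that stood apart, was the lowest for 3 of the 40 genes, against 18.1% of all genes. In the heat map of the 40 genes, low values of control 3 appear in every role group. The 7 genes above the mean of controls 1 and 2 on control 3 were Cdc25c, Foxm1, Aurkb, Nuf2, Kif2c, Kif23 and Mki67. That holds for their brightest probe sets. In dimmer probe sets above the filter, the mean of controls 1 and 2 minus control 3 was 1.30 for Foxm1 and 1.40 for Kif23. It was 0.93 and 0.85 for Kif2c, 0.52 for Cdc25c and 0.11 for Aurkb. Further dimmer probe sets of Foxm1 and Kif2c gave -0.35 and -0.81. Nuf2 and Mki67 had 1 probe set each.

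**Figure D1:**
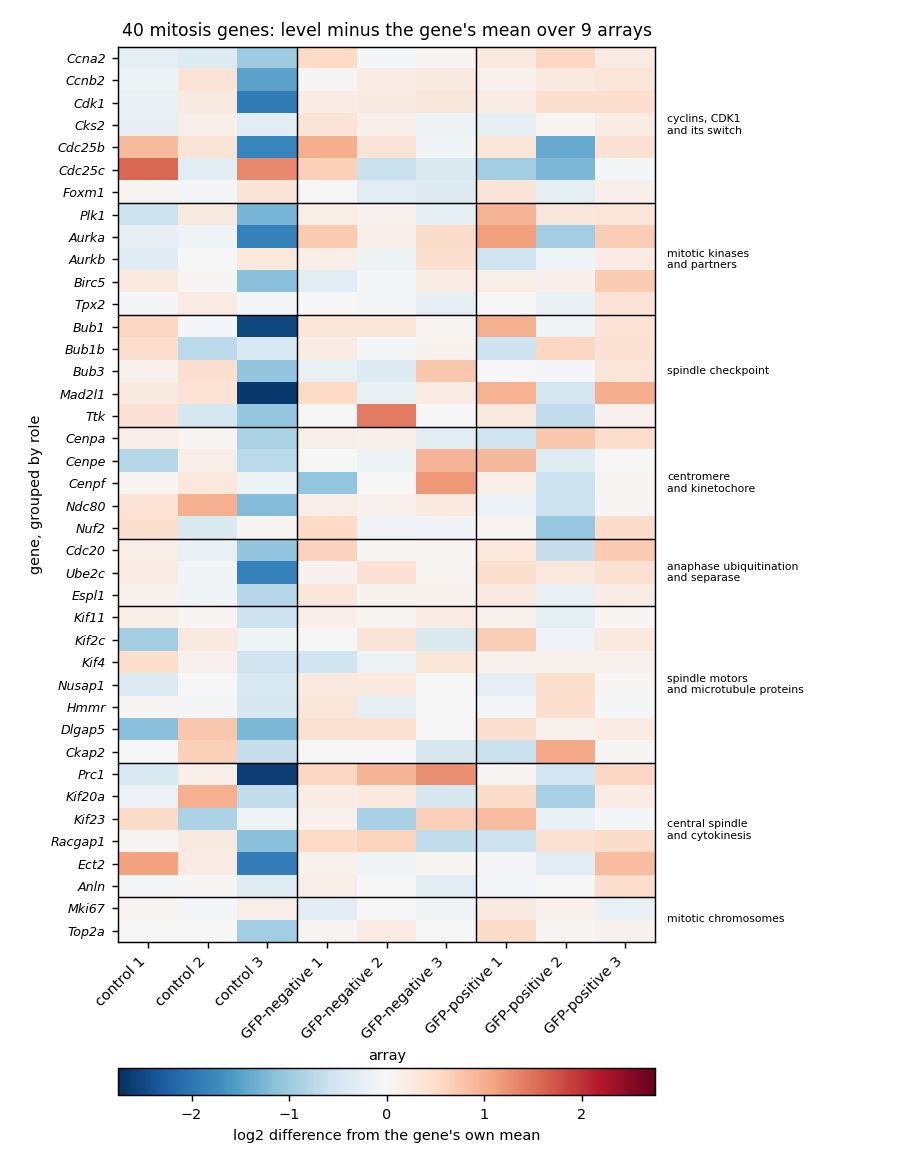
Each row is 1 of 40 mitosis genes, grouped by role, and each column 1 of 9 arrays. Colour gives the level minus the gene's own mean over the 9 arrays (log2). Control 3 is the lowest array for 28 genes, while the 3 GFP-negative columns vary little.

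Variation within a group also differed between the groups. The median SD of the 40 genes was 0.65 over the controls, 0.27 over the GFP-negative and 0.38 over the GFP-positive arrays, against 0.45, 0.33 and 0.44 over all genes tested. Controls had the largest SD of the 3 groups for 24 of the 40 genes, against 39.4% of all genes. Taken over all 9 arrays, pairs of the 40 genes had a median Pearson r of 0.33, and over the 8 arrays without control 3 the median was 0.054. For pairs of all genes tested the medians were 0.0031 and 0.0060. These correlations are a description of points that share 1 low array, and they carry no test.

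Promoters of genes of this kind often carry CCAAT boxes, the site of NF-Y, and a cell cycle genes homology region, through which the DREAM and FOXM1 complexes act. RefSeq promoters of the GRCm38.p6 build were found for 33 of the 40 genes, 36 promoters in all since 3 genes have 2. None was in the table for Ccna2, Cdc25c, Foxm1, Aurkb, Tpx2, Dlgap5 or Kif20a. In the 250 bases before the start, searched on both strands, CCAAT was present in 29 of the 36 promoters (80.6%), against 33.8% of all 32851 promoters in the table. The homology region was searched as the letters TTTGAA and, as an equal choice, as the letters TTCGAA, and these were in 16 (44.4%) against 17.1%. Promoters with both kinds of letters numbered 15 (41.7%) against 6.02%. The letters of an E2F site, searched as TTTCGCGC and in a second form as TTTGGCGC, were in 1 (2.78%), that of Cdk1, against 0.654%. A match is a run of letters and not a measured binding site.

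The following 150 bases before the start are shown for 6 genes that were low together on control 3 (Cdk1, Ccnb2, Cdc20, Ube2c, Prc1 and Top2a) and for Mki67, which was not. They are written 5′ to 3′ on the gene's strand, and capitals mark the CCAAT box and the homology letters on either strand.
Cdk1, chr10:69352913-69353062, minus strand: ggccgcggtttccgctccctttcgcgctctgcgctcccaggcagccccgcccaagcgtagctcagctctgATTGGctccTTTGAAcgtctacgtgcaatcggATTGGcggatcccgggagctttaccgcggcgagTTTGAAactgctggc
Ccnb2, chr9:70421555-70421704, minus strand: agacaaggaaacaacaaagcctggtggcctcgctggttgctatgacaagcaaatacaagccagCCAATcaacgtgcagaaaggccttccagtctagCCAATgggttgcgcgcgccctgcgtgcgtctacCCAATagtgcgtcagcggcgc
Cdc20, chr4:118437344-118437493, minus strand: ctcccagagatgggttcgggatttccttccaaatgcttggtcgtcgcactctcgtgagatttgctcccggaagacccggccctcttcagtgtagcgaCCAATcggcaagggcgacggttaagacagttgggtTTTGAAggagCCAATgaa
Ube2c, chr2:164769779-164769928, plus strand: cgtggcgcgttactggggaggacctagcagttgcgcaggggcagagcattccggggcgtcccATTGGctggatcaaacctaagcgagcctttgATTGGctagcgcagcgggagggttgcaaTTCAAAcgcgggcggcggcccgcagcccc
Prc1, chr7:80294326-80294475, plus strand: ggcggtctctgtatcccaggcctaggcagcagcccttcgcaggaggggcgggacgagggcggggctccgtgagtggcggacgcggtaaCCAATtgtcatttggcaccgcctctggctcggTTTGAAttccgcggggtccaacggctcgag
Top2a, chr11:99024190-99024339, minus strand: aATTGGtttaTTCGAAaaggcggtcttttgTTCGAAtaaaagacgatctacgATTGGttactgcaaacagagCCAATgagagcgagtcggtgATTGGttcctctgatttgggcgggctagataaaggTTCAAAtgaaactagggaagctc
Mki67, chr7:135716380-135716529, minus strand: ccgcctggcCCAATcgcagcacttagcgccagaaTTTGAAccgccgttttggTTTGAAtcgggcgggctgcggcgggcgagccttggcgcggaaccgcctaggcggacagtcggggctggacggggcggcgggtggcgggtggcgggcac
In Cdk1, Cdc20, Ube2c, Prc1 and Top2a the homology letters nearest to the start began 15, 18, 29, 30 and 23 bases before it. In Mki67 the nearest began 98 bases before it, with the only CCAAT of the window at 141. Ccnb2 held 3 CCAAT boxes and no homology letters in this window, though it held them within the 250 bases searched. Where a gene had several promoters, the one with the most homology letters was shown. The genes shown were picked by their level on control 3, with Mki67 alone as a gene that was not low. A link between these letters and the levels was not tested.

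Among the cyclins, CDK1 and its switch, no gene passed the test in any comparison. Ccna2, cyclin A2, which activates CDKs from S phase into mitosis, was at 9.40, 9.29 and 8.70 in controls, at 10.2, 9.61 and 9.74 in GFP-negative cells and at 9.94, 10.25 and 9.89 in GFP-positive cells. All 6 dnMPL arrays lay above all 3 controls, which among the 40 genes was so only for Ccna2 and Top2a and held for 1.6% of all genes tested. The difference from control was 0.90 ± 0.30 (SE) in GFP-positive cells, with a 95% interval of 0.23 to 1.57 (limma adjusted p = 0.664). In GFP-negative cells it was 0.72 ± 0.30 (adjusted p = 0.876). Without control 3 these values were 0.68 and 0.51.

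Cdk1 itself, the kinase of mitotic entry, stood at 7.31, 7.74 and 5.58 in controls, at 7.70, 7.74 and 7.80 in GFP-negative and at 7.70, 7.94 and 7.96 in GFP-positive cells. Control 3 was about 2 log2 units under the other arrays, and control 2 lay among the dnMPL arrays. Cdk1 differed from control by 0.99 ± 0.49 in GFP-positive and 0.87 ± 0.49 in GFP-negative cells (adjusted p = 0.789 and 0.906), and without control 3 by 0.34 and 0.22. Ccnb2, cyclin B2, had the same outline, at 8.22, 8.70 and 6.89 in controls, 8.39, 8.57 and 8.61 in GFP-negative and 8.48, 8.63 and 8.69 in GFP-positive cells. The dnMPL arrays fell between controls 1 and 2. Its differences of 0.66 ± 0.42 and 0.59 ± 0.42 in GFP-positive and GFP-negative cells became 0.14 and 0.062 without control 3.

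Cdc25c, a phosphatase that activates CDK1, went the other way. Its levels were 8.68, 6.82 and 8.41 in controls, 7.75, 6.48 and 6.70 in GFP-negative and 6.14, 5.87 and 7.07 in GFP-positive cells. Controls 1 and 3 were above every dnMPL array, but control 2 lay inside their range, so the groups overlapped. The difference from control was -1.61 ± 0.56 in GFP-positive cells (95% interval -2.87 to -0.35, adjusted p = 0.689) and -0.99 ± 0.56 in GFP-negative cells (adjusted p = 0.906). A dimmer probe set of Cdc25c differed by 0.29 and 0.47 in the same comparisons, with the opposite sign. Cdc25b, a phosphatase that acts earlier in G2, was at 4.15 on control 3 and 4.57 on GFP-positive 2 and at 5.88 to 6.96 on the other arrays. Foxm1, the transcription factor of G2/M genes, was at 6.58, 6.49 and 6.87 in controls, 6.53, 6.21 and 6.16 in GFP-negative and 6.87, 6.26 and 6.66 in GFP-positive cells, with overlapping groups. Its difference between GFP-positive cells and control was -0.050 ± 0.27 (95% interval -0.67 to 0.56). Cks2, a small subunit bound to CDKs, ranged from 10.2 to 10.8 with overlapping groups.

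Plk1, the Polo kinase of spindle assembly and cytokinesis, was at 5.34, 6.16 and 4.65 in controls, 6.12, 6.02 and 5.68 in GFP-negative and 6.85, 6.23 and 6.26 in GFP-positive cells. The GFP-positive arrays lay above all other arrays, with control 2 at 6.16 just under the nearest of them at 6.23. Plk1 differed from control by 1.06 ± 0.39 in GFP-positive cells (95% interval 0.18 to 1.95, adjusted p = 0.720) and by 0.55 ± 0.39 in GFP-negative cells (adjusted p = 0.924). These values were 0.70 and 0.19 without control 3. Between the dnMPL fractions Plk1 differed by 0.51 ± 0.39 (adjusted p = 1.0).

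Aurka, the Aurora kinase of centrosomes, was at 6.36, 6.46 and 4.73 in controls, 7.30, 6.72 and 7.09 in GFP-negative and 7.70, 5.62 and 7.26 in GFP-positive cells. All GFP-negative arrays were above the controls, whereas GFP-positive 2 fell below controls 1 and 2. The differences were 1.19 ± 0.60 in GFP-negative and 1.01 ± 0.60 in GFP-positive cells (adjusted p = 0.893 and 0.848), and 0.63 and 0.45 without control 3. With control 3 and GFP-positive 2 both left out, Aurka differed between GFP-positive cells and control by 1.07.

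Tpx2, which brings Aurora A to the spindle, was flat at 7.92, 8.19 and 7.93 in controls, 7.97, 7.94 and 7.69 in GFP-negative and 7.95, 7.80 and 8.34 in GFP-positive cells. The 95% interval of its difference between GFP-positive cells and control was -0.57 to 0.60. Aurkb, the Aurora kinase of the chromosomal passenger complex, was at 7.38, 7.72 and 7.99 in controls, 7.89, 7.56 and 8.14 in GFP-negative and 7.16, 7.58 and 7.92 in GFP-positive cells, with overlap of all groups. Birc5, survivin, a partner of Aurora B, was at 8.54, 8.29 and 7.11 in controls, 7.95, 8.24 and 8.47 in GFP-negative and 8.43, 8.39 and 8.96 in GFP-positive cells. Only control 3 was low for Birc5, and its difference of 0.62 ± 0.40 in GFP-positive cells was 0.18 without that array.

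**Figure D2:**
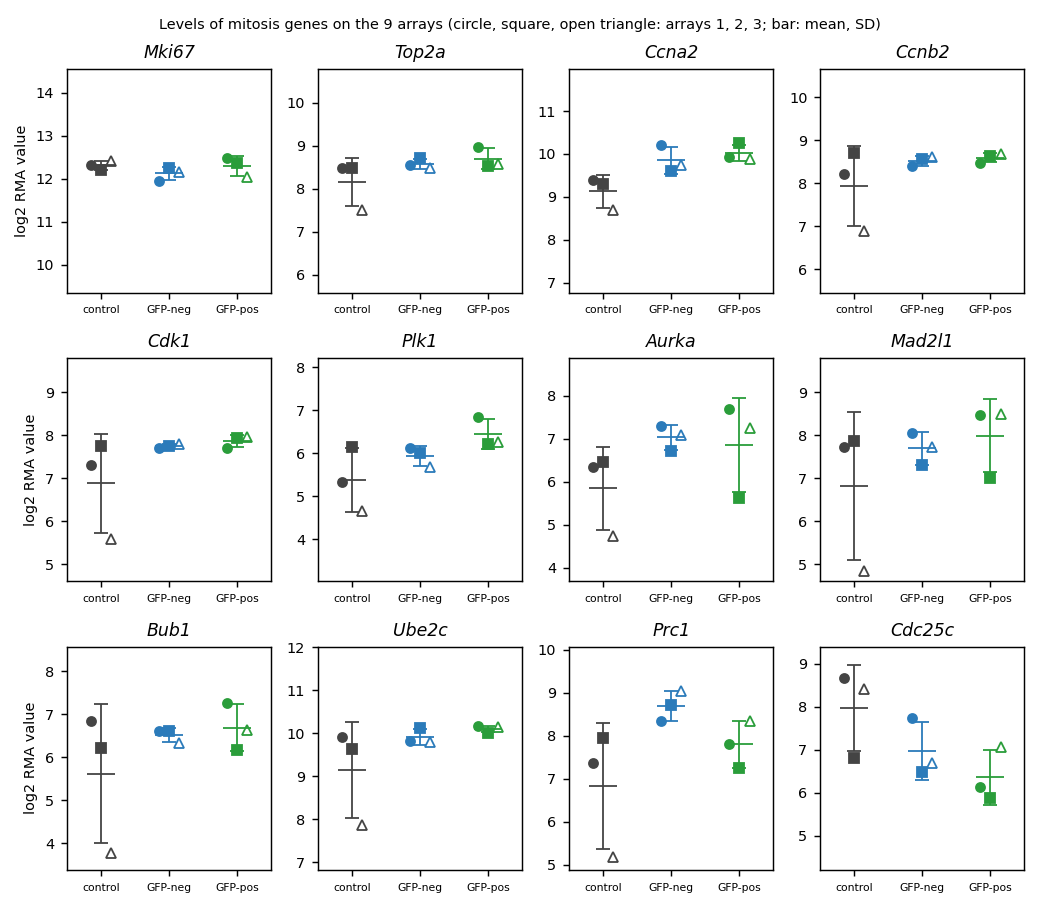
Levels (log2 RMA values) of 12 mitosis genes in control, GFP-negative and GFP-positive LSK cells, with circles, squares and open triangles for arrays 1, 2 and 3 and bars for the mean and SD of 3 arrays. Every panel spans the same range. Control 3, the open triangle, is low for 10 of the genes, and not for Mki67 and Cdc25c.

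All 5 spindle checkpoint genes had positive point estimates against control in both dnMPL fractions, and none passed. Without control 3 the estimates were positive for 3 of 5 genes in GFP-positive and 2 of 5 in GFP-negative cells. Mad2l1, MAD2, which inhibits CDC20 until kinetochores attach, was at 7.74, 7.88 and 4.84 in controls, 8.06, 7.30 and 7.72 in GFP-negative and 8.46, 7.01 and 8.50 in GFP-positive cells. Apart from control 3, its arrays overlapped. The differences of 1.17 ± 0.77 and 0.88 ± 0.77 in GFP-positive and GFP-negative cells were 0.18 and -0.11 without control 3. Bub1, a kinetochore kinase, was at 6.86, 6.22 and 3.78 in controls, 6.62, 6.61 and 6.34 in GFP-negative and 7.26, 6.18 and 6.65 in GFP-positive cells. Here too a difference of 1.07 ± 0.68 in GFP-positive cells came down to 0.16 without control 3.

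Bub1b, BUBR1 of the mitotic checkpoint complex, was at 7.68, 6.45 and 6.77 in controls, 7.39, 7.14 and 7.28 in GFP-negative and 6.61, 7.76 and 7.59 in GFP-positive cells. Its lowest array was control 2, and the groups overlapped. Ttk, the kinase MPS1 at the head of the checkpoint, was at 7.23, 6.35 and 5.76 in controls, 6.84, 8.24 and 6.85 in GFP-negative and 7.10, 6.16 and 6.96 in GFP-positive cells. GFP-negative 2 was its high array. Between the dnMPL fractions Ttk differed by -0.57 ± 0.51 (adjusted p = 1.0). Bub3, which binds BUB1 and BUBR1, ranged from 7.74 on control 3 to 9.56 on GFP-negative 3.

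The centromere and kinetochore genes gave the smallest list median in GFP-positive cells, -0.18 against control, with 2 of 5 genes higher. Cenpa, the histone H3 variant of centromeres, was at 6.88, 6.74 and 5.82 in controls, 6.85, 6.84 and 6.38 in GFP-negative and 6.14, 7.44 and 7.19 in GFP-positive cells. Cenpe, a kinesin that carries chromosomes to the spindle equator, was at 7.60, 8.55 and 7.64 in controls, 8.38, 8.23 and 9.32 in GFP-negative and 9.26, 8.04 and 8.36 in GFP-positive cells. Control 2 was inside the dnMPL range for both genes. Cenpe differed from control by 0.63 ± 0.44 and 0.72 ± 0.44 in GFP-positive and GFP-negative cells (adjusted p = 0.895 and 0.912), and by 0.48 and 0.57 without control 3.

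Ndc80, which binds microtubules at the kinetochore, was at 7.36 to 7.98 in GFP-positive cells, below 8.07 to 8.22 in GFP-negative cells, without overlap. Controls spanned both, at 8.31, 8.93 and 6.76. The difference between the fractions was -0.43 ± 0.49 (adjusted p = 1.0), and without control 3 GFP-positive cells differed from control by -0.91. Nuf2, the partner of NDC80, ranged from 6.73 on GFP-positive 2 to 8.33 on GFP-negative 1. Cenpf, a large kinetochore protein, ranged from 6.99 on GFP-negative 1 to 9.24 on GFP-negative 3, so its extremes came from the same group.

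The 3 genes of anaphase had positive point estimates in both fractions, with list medians of 0.49 in GFP-positive and 0.60 in GFP-negative cells, which were 0.13 and 0.16 without control 3. Ube2c, the ubiquitin-conjugating enzyme of the anaphase-promoting complex, was at 9.92, 9.64 and 7.86 in controls, 9.81, 10.1 and 9.79 in GFP-negative and 10.2, 10.02 and 10.1 in GFP-positive cells. All GFP-positive arrays lay above the controls, the nearest at 10.02 against 9.92 on control 1. Ube2c differed by 0.96 ± 0.48 in GFP-positive cells (adjusted p = 0.789) and by 0.32 without control 3. Cdc20, the activator of that complex, was at 8.44, 8.06 and 7.17 in controls, 8.88, 8.29 and 8.31 in GFP-negative and 8.55, 7.63 and 8.98 in GFP-positive cells, with overlap. Espl1, separase, which cuts cohesin, ranged from 5.50 on control 3 to 6.60 on GFP-negative 1.

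Among spindle motors and microtubule proteins, all 7 genes had positive point estimates in GFP-positive cells and 5 of 7 in GFP-negative cells, and without control 3 these counts were 4 of 7 and 5 of 7. Kif11, the kinesin that pushes spindle poles apart, was at 9.66, 9.55 and 8.93 in controls, 9.63, 9.55 and 9.72 in GFP-negative and 9.62, 9.26 and 9.55 in GFP-positive cells. Control 3 was low and the rest overlapped, and the difference between GFP-positive cells and control was 0.099 ± 0.28 (95% interval -0.53 to 0.73). Nusap1, a microtubule protein of the spindle, was at 8.64 to 8.92 in GFP-negative cells, just above 8.21 to 8.62 in controls, and at 8.38 to 9.13 in GFP-positive cells. Dlgap5, which stabilises fibres at kinetochores, was at 5.69, 7.59 and 5.61 in controls and at 6.84 to 7.31 in the dnMPL arrays, between the low and the high controls. Kif2c, a kinesin that takes microtubules apart, ranged from 4.99 on control 1 to 6.63 on GFP-positive 1. Hmmr, a spindle protein, ranged from 6.71 on control 3 to 7.60 on GFP-positive 2, and Ckap2, a microtubule protein, from 5.77 on control 3 to 7.45 on GFP-positive 2. Kif4, a kinesin of chromosome arms, had the same value of 5.88 on the 3 GFP-positive arrays and control 2.

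Among genes of the central spindle and cytokinesis, Prc1 had the largest difference of the list in GFP-negative cells. Prc1, which bundles the microtubules between the separating chromosomes, was at 7.36, 7.94 and 5.18 in controls, 8.34, 8.71 and 9.04 in GFP-negative and 7.81, 7.24 and 8.34 in GFP-positive cells. The GFP-negative arrays were above all controls, and 1 GFP-positive array tied with the lowest of them. Prc1 differed from control by 1.87 ± 0.64 in GFP-negative cells (95% interval 0.44 to 3.30, adjusted p = 0.822) and by 0.97 ± 0.64 in GFP-positive cells. Without control 3 these values were 1.05 and 0.15. Its dimmer probe set differed by 0.86 and 0.80. Between the fractions the 95% interval of the Prc1 difference was -2.33 to 0.54.

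The other 5 genes of this group had overlapping groups in all comparisons. Ect2, the exchange factor that activates RhoA at the furrow, was at 7.64, 6.75 and 4.63 in controls and at 6.22 to 7.38 in the dnMPL arrays. Its difference in GFP-positive cells turned from 0.35 to -0.50 without control 3. Racgap1, which with the kinesin Kif23 forms centralspindlin, ranged from 5.24 on control 3 to 7.01 on GFP-negative 2. Kif23 ranged from 8.19 on GFP-negative 2 to 9.93 on GFP-positive 1. Kif20a, a kinesin of the central spindle, ranged from 7.80 on GFP-positive 2 to 9.66 on control 2, and Anln, anillin, the scaffold of the contractile ring, from 5.82 on control 3 to 6.62 on GFP-positive 3.

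Mki67, which coats mitotic chromosomes and is the common marker of cycling cells, was at 12.33, 12.21 and 12.41 in controls, 11.96, 12.26 and 12.15 in GFP-negative and 12.49, 12.37 and 12.04 in GFP-positive cells. No array stood apart, control 3 included. Its SD within groups was 0.17, and its difference between GFP-positive cells and control was -0.013 ± 0.25 with a 95% interval of -0.57 to 0.55. In GFP-negative cells the interval was -0.75 to 0.37. Top2a, the topoisomerase that untangles chromosomes, was at 8.48, 8.48 and 7.52 in controls, 8.56, 8.71 and 8.48 in GFP-negative and 8.98, 8.53 and 8.58 in GFP-positive cells. All dnMPL arrays were above the controls, but GFP-negative 3, at 8.485, was barely above control 1, at 8.4833. Top2a differed by 0.54 ± 0.32 and 0.43 ± 0.32 in GFP-positive and GFP-negative cells (adjusted p = 0.848 and 0.926), and by 0.22 and 0.11 without control 3.

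The first comparison asks whether LSK cells that carry dnMPL differ from control LSK cells in their mitosis genes. Most of the 40 genes had slightly higher means in GFP-positive cells, and none passed the test. The median difference was 0.355, with 31 of 40 genes higher, against a median of -0.028 and 47.2% higher among all genes tested. Adjusted p under 0.05 was reached by 0 of the 40 genes and by 0 of 12400 genes (0%) in limma. At an unadjusted p under 0.05, Ccna2 and Plk1 were higher and Cdc25c was lower, 3 of 40 genes against 6.49% of all genes (3.3% higher and 3.19% lower). Groups did not overlap for Ccna2, Plk1, Ube2c and Top2a, 4 of 40 genes and all higher, against 4.35% of all genes higher and 4.26% lower (8.61% in all).

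Without control 3 the median of the list was 0.11, with 26 of 40 genes higher, and 11 genes changed sign. Without control 3 and GFP-positive 2 it was 0.18. Without control 1 or control 2 it was 0.51 or 0.49, and without GFP-positive 3 it was 0.22.

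**Figure D3:**
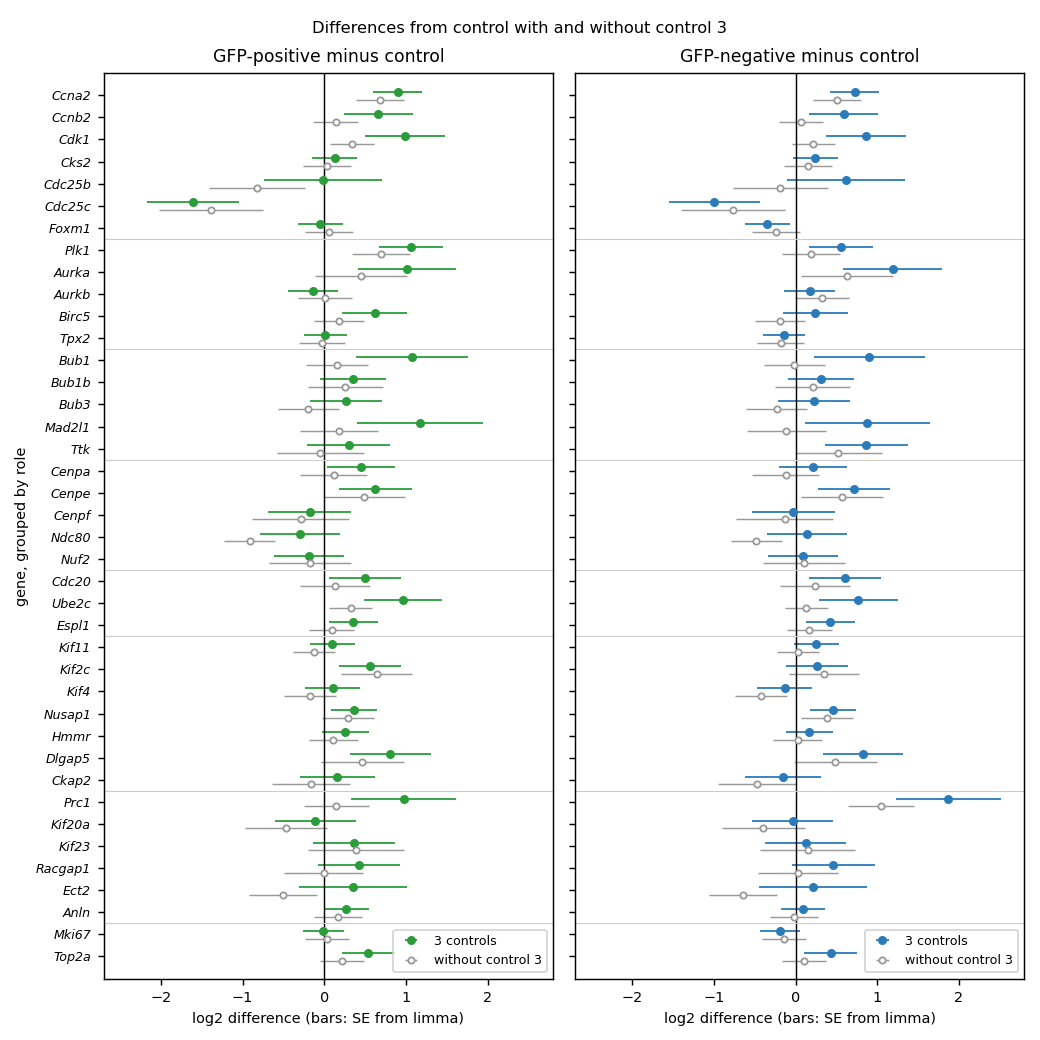
Difference of each of 40 mitosis genes from control (log2, bars are SE from limma) in GFP-positive cells on the left and GFP-negative cells on the right. Filled points use 3 controls and open points leave out control 3. Without control 3 the list medians are 0.11 and 0.046 in place of 0.355 and 0.26, while single genes such as Ndc80 in GFP-positive cells, at -0.29 and then -0.91, move away from 0.

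The second comparison sets LSK cells without GFP, from mice given dnMPL-transduced cells, against the same controls. The picture was alike in outline, with a median difference of 0.26 and 32 of 40 genes higher, against -0.038 and 46.5% higher among all genes. Again 0 of the 40 genes and 0 of 12400 (0%) passed. At an unadjusted p under 0.05, Prc1 and Ccna2 were higher and 0 genes were lower, 2 of 40 genes against 5.57% of all genes (2.83% higher and 2.74% lower). The groups did not overlap for Ccna2, Aurka, Nusap1, Prc1 and Top2a, 5 of 40 genes and all higher, against 4.94% of all genes higher and 6.47% lower (11.4% in all). Without control 3 the median was 0.046 with 23 of 40 genes higher, and without control 1 or control 2 it was 0.49 or 0.51. Because both comparisons use the same controls, a low control array enters both.

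The third comparison, between GFP-positive and GFP-negative cells, does not use the controls. Here the genes were split, with 22 of 40 higher in GFP-positive cells, a median of 0.062 and a median of 0.015 over all genes. Adjusted p under 0.05 was reached by 0 of 40 and 0 of 12400 genes (0%), and an unadjusted p under 0.05 by 0 of 40 genes, against 2.55% of all genes (1.28% higher and 1.27% lower). Groups did not overlap for Plk1, which was higher (3.96% of all genes), and Ndc80, which was lower (2.44%), 2 of 40 genes against 6.4% of all genes in both directions. For Mki67 the 95% interval of the difference was -0.38 to 0.74, for Ccna2 -0.50 to 0.85 and for Cdk1 -0.98 to 1.22. For Mad2l1 it was wider, at -1.42 to 2.02.

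A wider list of 116 mitosis genes outside the 40, of which 111 were tested, covers the rest of the kinetochore, condensin and cohesin, the anaphase-promoting complex, further spindle proteins, mitotic kinases and the MuvB complex with B-Myb. In GFP-positive cells 73 of 111 (65.8%) were above control, with a median of 0.16, against 47.2% and -0.028 among all genes tested. In GFP-negative cells 80 of 111 (72.1%) were above control, with a median of 0.35, against 46.5% and -0.038. None passed in any comparison (0 of 111). At an unadjusted p under 0.05 in limma there were 6 and 9 of 111 in GFP-positive and GFP-negative cells, against 6.49% and 5.57% of all genes. Groups did not overlap for 13 of 111 in GFP-positive cells, 12 higher and 1 lower, against 8.61% of all genes. In GFP-negative cells this held for 16 of 111, 15 higher and 1 lower, against 11.4%. Between the fractions 43 of 111 (38.7%) were higher in GFP-positive cells, with a median of -0.10, against 51.8% of all genes. With control 3 and GFP-positive 2 left out 62 of 111 (55.9%) were higher, with a median of 0.036, against 51.6% of all genes. Without control 3 the medians against control were -0.039 and 0.10 in GFP-positive and GFP-negative cells. Then 53 and 68 of 111 were higher (47.7% and 61.3%), against 46.9% and 44.9% of all genes. The median level of this list was also lowest on control 3, at 6.81 against 7.34 to 7.80 on the other arrays.

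Melk, a kinase of dividing progenitors, was among the 3 genes of the wider list with the smallest p in both comparisons with control. It was at 4.59, 5.69 and 5.13 in controls, 6.27, 6.55 and 7.16 in GFP-negative and 7.16, 7.72 and 6.63 in GFP-positive cells. All dnMPL arrays were above all controls, which held for 1.6% of all genes tested, and control 3 was not the lowest. Melk was picked by its small p, so its separated groups add no support. Melk differed by 2.04 ± 0.40 in GFP-positive cells (adjusted p = 0.291) and by 1.52 ± 0.40 in GFP-negative cells (adjusted p = 0.610).

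Lin54, the DNA-binding subunit of the MuvB complex, which recognises the homology region printed above, was at 4.69, 5.05 and 6.05 in controls, 6.61, 6.47 and 7.02 in GFP-negative and 7.20, 8.10 and 6.94 in GFP-positive cells. Control 3 was the highest control, and no dnMPL array overlapped the controls. Lin54 too was picked by its small p, so this separation adds no support. Its differences were 2.15 ± 0.43 and 1.44 ± 0.43 in GFP-positive and GFP-negative cells (adjusted p = 0.291 and 0.707). Sgo2a, a shugoshin that protects cohesin, differed by 1.04 ± 0.30 in GFP-positive cells (adjusted p = 0.603). Pmf1, of the kinetochore's MIS12 complex, differed by 1.05 ± 0.27 in GFP-negative cells (adjusted p = 0.603).

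Between the fractions the 3 genes with the smallest p were subunits of the anaphase-promoting complex. Cdc23 differed by -1.95 ± 0.70, with GFP-positive 2 at 4.73 and the other arrays at 7.13 to 9.17. Anapc11 differed by -1.12 ± 0.44, and its GFP-positive arrays at 6.81 to 7.92 lay below the GFP-negative arrays at 8.00 to 8.59. Anapc1 differed by 2.08 ± 1.06, with GFP-positive 2 at 10.5. The adjusted p was 1.0 for each.

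Probe sets of the same gene did not always tell the same story. Of the 40 genes, 25 had several probe sets for that gene alone and 15 had 1. In the 23 genes with several above the filter, the sign of the difference was mixed in 7 for GFP-positive cells against control, in 9 for GFP-negative cells against control and in 14 between the fractions. The 35 dimmer probe sets had a median difference from control of 0.41 in GFP-positive and 0.41 in GFP-negative cells. On control 3, 26 of these 35 were below the mean of controls 1 and 2, against 52.0% of all genes tested by their brightest probe sets. Both medians include control 3, so they share that low array with the brightest probe sets.

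Some genes showed wide gaps between probe sets. A dimmer probe set of Ccna2 was 3.49 lower on control 3 than on controls 1 and 2, where the brightest was 0.65 lower, and it differed by 1.57 in GFP-positive and 1.51 in GFP-negative cells. For Hmmr a dimmer probe set differed by 2.40 in GFP-positive cells and the brightest by 0.26. For Cenpa the brightest differed by 0.44 and the others by -0.33 and -1.32. For Foxm1 the brightest differed by -0.050, and a probe set close to it in level by 0.71. The single values of these genes therefore depend on the probe set chosen.

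**Figure D4:**
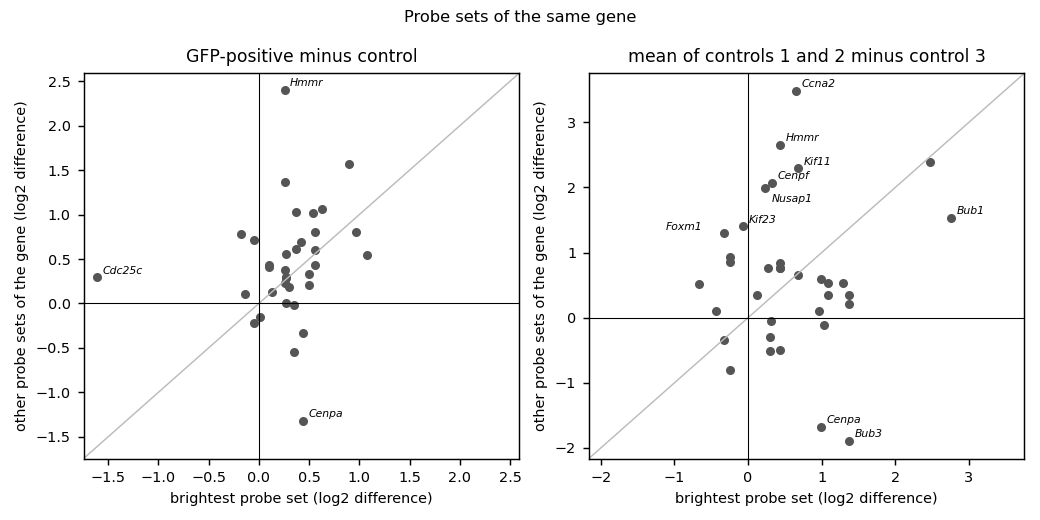
Each point is 1 of 35 dimmer probe sets of the mitosis genes, its log2 difference on the vertical axis against that of the gene's brightest probe set on the horizontal axis. The left panel shows GFP-positive minus control and the right panel the mean of controls 1 and 2 minus control 3. Points on the grey diagonal have equal values, and Ccna2, at 0.65 and 3.49 on the right, lies farthest above it.

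The Gapdh gap went with the level of the mitosis genes at its extremes, while the Actb gap did not set control 3 apart. The widest Gapdh gap, 3.87, belonged to control 3, which had the lowest median of the 40 genes, and the next widest, 3.22, to GFP-positive 2, which had the next lowest at 7.45. The narrowest gap, 2.47, belonged to GFP-positive 3, which had the highest median at 7.97. These 3 arrays had the same order in the median level over all genes tested. It was lowest on control 3 at 6.11, next lowest on GFP-positive 2 at 6.13 and highest on GFP-positive 3 at 6.46. The order was therefore not particular to the mitosis genes. The part of RNA quality in the differences was not tested. The like measure for Actb was -0.72 on control 3, within the -0.55 to -0.72 of the arrays other than GFP-positive 2, which was at -1.13.

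**Figure D5:**
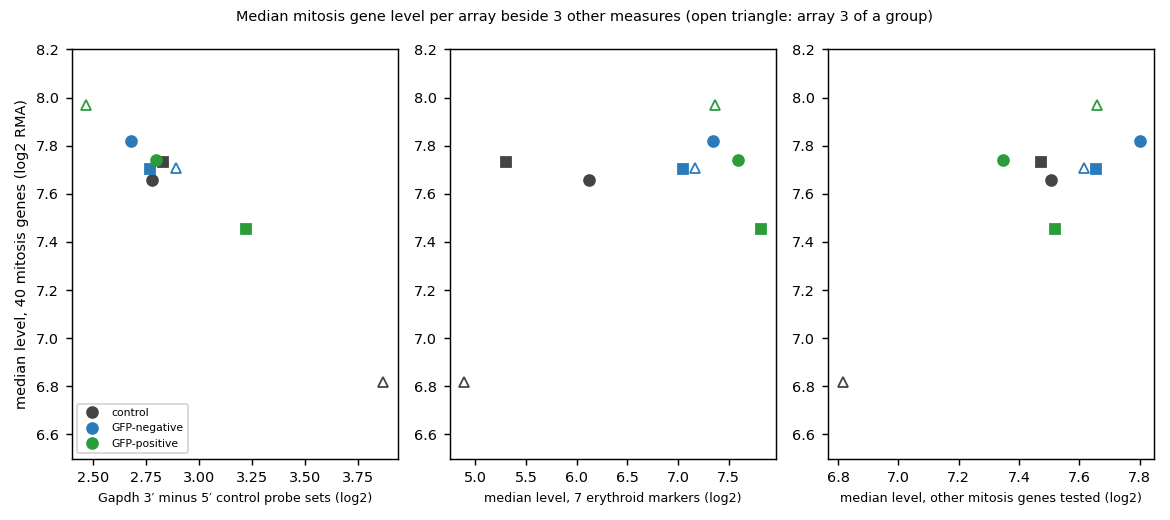
The median level of 40 mitosis genes on each of 9 arrays (vertical axis, log2 RMA) beside the Gapdh 3′ to 5′ gap, the median level of 7 erythroid markers and the median level of 111 other mitosis genes (all log2). Control 3 is at 6.82 and the other 8 arrays lie between 7.45 and 7.97.

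Marker lists of maturing cells also differed between the arrays, and not all in the same direction. Of 9 erythroid markers 7 were measured, and the log2 of their summed levels was 8.81 to 9.18 in controls, 10.6 to 10.9 in GFP-negative and 10.9 to 11.01 in GFP-positive cells. The globin gene Hba-a1 lay at 3.67 to 4.74, and Epor, the erythropoietin receptor, differed from control by -0.34 and -0.44 in GFP-positive and GFP-negative cells. For 12 of 13 granulocyte markers the sum was 12.4 to 14.3 in controls, 14.1 to 15.4 in GFP-negative and 14.8 to 15.7 in GFP-positive cells. The highest control sum, 14.3, was that of control 3, against 13.1 and 12.4 on controls 1 and 2. On control 3 the late neutrophil genes Lcn2, Camp, Ngp and S100a8 lay at 8.30, 10.4, 11.1 and 11.9, against 3.47 to 9.04 on controls 1 and 2, while the early granule genes Elane and Ctsg were at their lowest there, at 6.10 and 6.89. The array with the lowest mitosis gene levels also had the highest granulocyte sum of the controls. The dnMPL arrays, with granulocyte sums of 14.1 to 15.7, had mitosis medians of 7.45 to 7.97. For 4 of 5 monocyte markers it was 6.65 to 7.51, 8.41 to 9.79 and 8.02 to 11.07, with Cd14 below the filter. For 7 of 8 B cell markers it was 7.33 to 10.2, 8.54 to 9.75 and 9.46 to 10.7, with overlap. For the 4 megakaryocyte markers it was lower in the dnMPL arrays, at 8.51 to 9.66, 7.97 to 8.31 and 7.68 to 8.34, with Vwf below the filter. For the 4 mast cell and basophil markers it was 7.26 to 7.53, 7.47 to 8.68 and 8.14 to 9.16, with Fcer1a below the filter. Controls 1 and 2 had erythroid sums of 8.88 and 9.18, far below the dnMPL arrays, while their mitosis medians of 7.66 and 7.73 lay within the dnMPL range. The part of these cells in the mitosis gene levels was not tested.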

How the data were processed

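The authors deposited log2 values; the submitters' processing notes name RMA for them without a version. RMA is a method that corrects background, quantile-normalizes arrays and summarises each probe set by median polish. Scanner files and a genome build were not used here. Of 45101 probe sets, 34945 had 1 gene in the platform annotation, 932 several and 9160 none, and 64 were controls. Each gene was represented by its brightest such probe set, and genes were tested where its mean passed 4.03, percentile 40 over all probe sets. Group means over all 9 arrays were fitted with lmFit and eBayes in limma 3.58.1 (R 4.3.3), with Benjamini-Hochberg adjustment over 12400 genes and a threshold of 0.05. The fit was tested on simulated data. With 3 arrays a group, the smallest p of an exact permutation test is 0.1. Genes and lists were chosen with earlier results of these data known, so lists carry counts and medians and no test. Values on all 9 arrays are given for a fixed set of genes (Mki67, Cdk1 and Plk1 among them) and for the 5 of the 40 genes with the smallest p per comparison; of the wider list, the 3 with the smallest p are named. Figures used matplotlib 3.10.9.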

Additional observations from a re-analysis of the deposited data

How the results depend on the processing

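In limma, 0 genes passed in each of the 3 comparisons under every alternative run: no filter, averaging over probe sets, a trended robust prior, array weights, a further quantile normalization, median centring, only the groups compared, the replicate block, a threshold of 0.1 and each array left out. At an unadjusted p under 0.05 there were 805, 691 and 316 genes in GFP-positive against control, GFP-negative against control and GFP-positive against GFP-negative, and in the fit with the replicate block 811, 624 and 308. With array weights they were 1368, 1133 and 984, and the smallest adjusted p was 0.0522, 0.0948 and 0.464. Without GFP-positive 3 the third count was 844. Whether same-numbered samples share mice is not given in the labels. Correlations of same-numbered deviations ranged from -0.29 to 0.1, and 2 of 9 arrays matched best outside their group with their own number. With so few arrays these values cannot decide whether the samples are paired. The median of the 40 genes ranged over single arrays left out from 0.11 to 0.51, from 0.046 to 0.51 and from 0.0029 to 0.095, and with array weights it was 0.14, 0.17 and 0.095. The lowest values against control came without control 3, where 11 and 9 of the 40 genes changed sign. Leaving out control 3 and GFP-positive 2 together was chosen after seeing the data. The cause of these shifts was not tested. With 3 arrays a group the array number limits precision.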
